A study of Mus musculus with 19 samples.

Results

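Skin and the tumours that arise in it carry a record of where on the body their cells formed. Outside the HOX clusters, part of that record is held by transcription factors of the T-box, paired-box, aristaless-like, distal-less and engrailed families. The level of 9 such genes was followed here in mouse skin tumours and normal skin: Tbx4, Tbx5, Tbx15, Pax9, Alx1, Alx4, Dlx5, Dlx6 and En1. They were taken by matching gene identifiers to these symbols, and no measured value entered this rule. All 9 were present among the 34807 genes of the table, and all 9 held at least 5 counts in at least 1 library and so entered the tests.

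Bulk RNA sequencing had been done on 15 tumours and 4 samples of normal skin, 1 library each, all from female mice. Every tumour came from a mouse in which BRAFV600E, an activated kinase of the MAPK pathway, was induced. The inducer was tamoxifen or 4-hydroxytamoxifen, given between 7 and 20 weeks of age. The genotypes were Ivl:BRAFV600E (6 tumours), K5:BRAFV600E (5 tumours) and K14:BRAFV600E (4 tumours), named here Ivl, K5 and K14, and normal skin was wild type. Cre recombinase was expressed from the Ivl promoter, which is active in committed and suprabasal keratinocytes, or from the Krt5 or Krt14 promoter, which are active in basal keratinocytes. The recombination was thus directed at keratinocytes, whereas a whole tumour also holds fibroblasts, vessels and immune cells. The labels do not give the body site of any library. The text of the study describes lesions at several body sites in the Ivl model. In the K5 and K14 models it describes a single back tumour, where the inducer had been applied. It names tamoxifen as inducer for the Ivl model and 4-hydroxytamoxifen for the K5 and K14 models. It also reports a longer time to tumour onset in the Ivl model. Body site, inducer, time to onset and genotype therefore cannot be told apart here.

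These factors act in the embryo and many stay on in the adult. Tbx5 and Tbx4 mark the forelimb and the hindlimb fields, respectively. Tbx15 patterns the dermis of the trunk along the back to belly axis, and En1 marks the ventral ectoderm of the limb and a fibroblast lineage of the back dermis. Alx1 and Alx4 pattern the mesenchyme of the face, Dlx5 and Dlx6 give the lower jaw its identity, and Pax9 is needed for teeth, palate and pharyngeal pouches and is kept on in the epithelium of the tongue and oesophagus. Fibroblasts and keratinocytes both contribute, so the level of such a gene in a whole tumour depends on which cells were sampled as well as on where.

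Alx1, Alx4, Dlx5, Dlx6 and En1 carry a homeobox. The 24 bases below encode a stretch of its recognition helix, the part that contacts DNA, and are shown because relatives with like sequence could share reads. They come from GENCODE transcripts of mouse build GRCm38, 5′ to 3′, and the capitals mark the first 4 codons, which all 5 proteins share as amino acids.
Alx1: TGGTTTCAAAATcgaagggccaag
Alx4: TGGTTCCAGAACcggagggccaag
Dlx5: TGGTTTCAGAACaaaagatccaag
Dlx6: TGGTTTCAGAATaagcgctctaag
En1: TGGTTCCAAAACaagcgtgccaag
Even here the genes differed. Alx1 and Alx4 were identical at 20 of the 24 bases, Dlx5 and Dlx6 at 19, and the least alike pairs at 16. Reads were 101 bases long. The longest exact stretch that a member shared with the transcripts of any other gene was below that length in 7 of the 9 genes, with 95 bases in Dlx6 the longest of these. Dlx5 shared no stretch of 40 bases or more. In Pax9, 189 of 5056 exonic bases overlap Slc25a21 on the opposite strand, and in Alx1, 243 of 5756 exonic bases overlap the noncoding gene Gm17028 on the same strand, so counts from those bases are uncertain.

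DNA before the RefSeq starts of Pax9 and En1 is shown as context, since Pax9 changed most against skin and En1 was the member whose levels did not overlap between the tumour groups. RefSeq windows (GRCm38.p6) were available here for Pax9, En1 and Tbx4. The stretch from 250 to 70 bases before the RefSeq start was used, which holds no exon base annotated for either gene. For Pax9 this stretch lies inside the gene as GENCODE annotates it, whose start is farther upstream, and for En1 it ends just before the gene. It is given 5′ to 3′ on the plus strand with CG dinucleotides in capitals, at chr12:56695221-56695401 for Pax9 and chr1:120602237-120602417 for En1.
Pax9: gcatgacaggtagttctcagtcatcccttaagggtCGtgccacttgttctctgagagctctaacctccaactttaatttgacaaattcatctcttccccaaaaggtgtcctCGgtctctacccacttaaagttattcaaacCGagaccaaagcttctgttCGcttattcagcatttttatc
En1: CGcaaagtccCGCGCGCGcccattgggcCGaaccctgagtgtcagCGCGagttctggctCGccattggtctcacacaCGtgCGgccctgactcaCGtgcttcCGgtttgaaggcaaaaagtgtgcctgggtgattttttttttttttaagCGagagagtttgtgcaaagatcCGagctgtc
The En1 stretch held 15 CG dinucleotides, a number reached by 14.1% of the 32851 windows of this length in the table. The Pax9 stretch held 4, the median of those windows. En1 also held CCAAT at 2 places on the minus strand and TGANTCA, a palindrome of the AP-1 type, at 1 place. On either strand, 25.2% and 4.9% of all windows held CCAAT and TGANTCA. In the Pax9 stretch neither these motifs nor TATAAA (8.4% of windows) nor GGGCGG (21.2%) matched. These are letters in a window and not measurements of binding.

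The libraries held 45715309 to 72609771 counts each. The deposited counts had been adjusted by the authors for a sequencing batch that the labels do not name. Ivl tumours 1, 2 and 3 and K5 tumour 1 carried a trace of this adjustment, known from earlier work on these data: for 72.3% of 13754 genes above 2 CPM (counts scaled to the size of the library, as used below), these 4 libraries and the other 15, normal skin included, had means that differed by at most 0.1 on the log2 scale. For the members the log2 ratio of the same means was -0.18 to 0.34 in 8 genes and -3.18 in Tbx5. Each test is therefore given over 19 libraries and within the 15 others, which hold 3 Ivl, 4 K5 and 4 K14 tumours and the 4 skin samples. Keratinocyte markers (6 genes, Krt5 and Krt14 among them) summed to 31067 to 97964 CPM in tumours and 4946 to 10338 CPM in skin. Skeletal muscle markers (8 genes) summed to 2307 to 6667 CPM in skin, so muscle RNA was present in the skin samples. In such bulk samples, fewer cells of a type and less RNA per cell cannot be told apart. The labels do not say which libraries came from separate mice, so p-values measure only the spread between these libraries.

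Per length of annotated exon, Tbx15 was the most abundant member in normal skin, with a mean of 8.34 CPM per kb. En1 (1.91 CPM per kb), Dlx5 (1.56) and Alx4 (1.32) followed at levels of the same order. Tbx4 was at 0.218, Alx1 at 0.0764, Dlx6 at 0.062, Pax9 at 0.0255 and Tbx5 at 0.0245 CPM per kb. Over the 15 tumours the order was another one. Dlx5 came first with 5.99 CPM per kb, then Tbx15 with 2.63 and Pax9 with 1.82, and the other 6 members were below 1 CPM per kb. The plot of levels in every library shows that skin and tumours separated in some genes only.

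**Figure D1:**
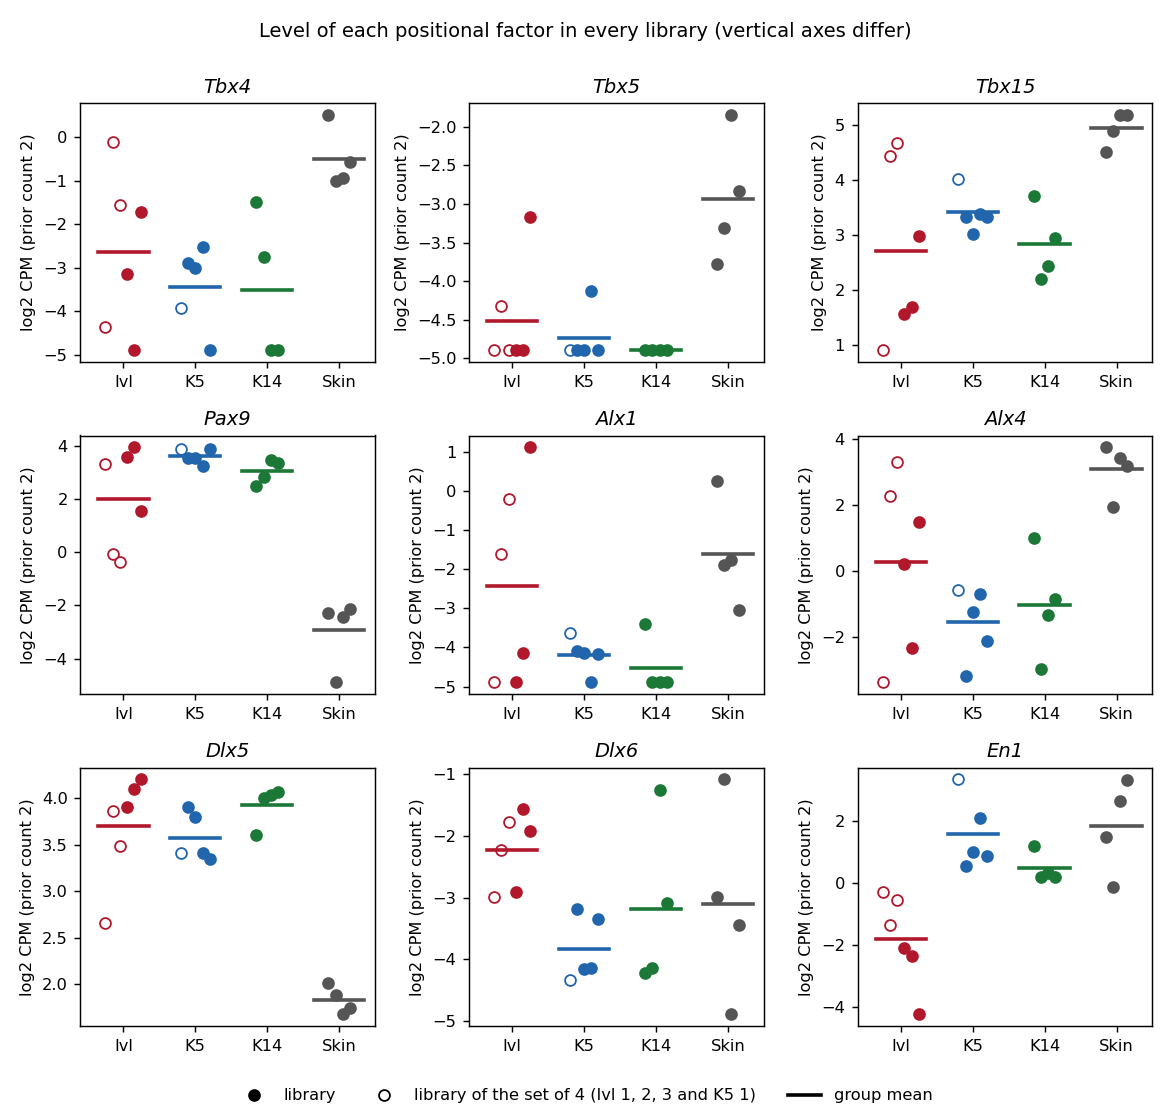
Level of each of the 9 genes as log2 CPM (vertical axes differ between panels) in Ivl, K5 and K14 tumours and normal skin, 1 point per library, with group means as bars and the 4 libraries that carry the batch trace hollow. Pax9 and Dlx5 were higher in all 15 tumours than in all 4 skin samples, and En1 was lower in the 6 Ivl tumours than in all 9 K5 and K14 tumours.

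The limb field factors were low and were seen mainly in normal skin. Tbx4 (ENSMUSG00000000094, chr11:85886422-85916097), the hindlimb factor, was at 1.38, 0.461, 0.487 and 0.634 CPM in skin samples 1 to 4. The 6 Ivl tumours ranged from 0 through a median of 0.17 to 0.887 CPM. K5 tumours 1 to 5 were at 0.0318, 0.101, 0.0903, 0.14 and 0 CPM, and K14 tumours 1 to 4 at 0.322, 0.115, 0 and 0 CPM. All 9 K5 and K14 tumours lay below all skin samples, whereas Ivl tumour 2 lay above 3 of the 4. In K5 and K14 tumours, Tbx4 fell by 3.03 ± 0.92 (SE) on the log2 scale against skin (edgeR, n = 9 and 4, adjusted p = 0.00847; within the 15 libraries adjusted p = 0.00496). In Ivl tumours the log2 difference from skin was -1.49 ± 0.99, which did not pass (edgeR, n = 6 and 4, adjusted p = 0.22; 0.0558 within the 15).

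Tbx5 (ENSMUSG00000018263, chr5:119832668-119885219), the forelimb factor, was near the detection limit. Skin samples 1 to 4 held 3, 6, 26 and 11 counts. Among the tumours, Ivl tumour 6 held 4 counts, Ivl tumour 2 and K5 tumour 4 held 1 count each, and the other 12 held 0. The ratio of summed CPM between skin and the K5 and K14 tumours was 51.5, with an exact 95% interval of 8.79 to 2077 that covers counting error only. Tbx5 was called lower than skin in these tumours (edgeR, adjusted p = 4.8e-04; 7e-04 within the 15) and in Ivl tumours (log2 difference -2.76 ± 0.92, adjusted p = 0.0262). The Ivl call did not hold within the 15 libraries (edgeR, log2 difference -2.03 ± 1.05, adjusted p = 0.11). It was also lost without skin sample 3 (-2.11), K5 tumour 4 (-2.76), Ivl tumour 4 (-2.54) or Ivl tumour 5 (-2.56), with adjusted p of 0.0509 to 0.111.

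Of the trunk factors Tbx15 and En1, Tbx15 was called lower in both tumour comparisons with skin. Over 19 libraries, En1 was called lower than skin in Ivl tumours only. Tbx15 (ENSMUSG00000027868, chr3:99240381-99354259) was at 22.8, 29.8, 36.2 and 36.2 CPM in skin samples 1 to 4. K5 tumours 1 to 5 were at 16.1, 9.95, 8.01, 10.3 and 9.96 CPM, and K14 tumours 1 to 4 at 13.1, 4.56, 5.39 and 7.64 CPM. None of these 9 tumours reached the lowest skin sample. Tbx15 fell by 1.72 ± 0.51 on the log2 scale in K5 and K14 tumours (edgeR, n = 9 and 4, adjusted p = 0.00784; 4.05e-05 within the 15). The 6 Ivl tumours ranged from 1.83 through a median of 5.53 to 25.5 CPM. Ivl tumours 2 and 3, at 21.5 and 25.5 CPM, were at or near the level of skin, and the other 4 were below 8 CPM. The log2 difference of Ivl tumours from skin was -1.58 ± 0.57 (edgeR, n = 6 and 4, adjusted p = 0.0392) and -2.75 ± 0.40 within the 15 libraries, which leave out both high tumours (adjusted p = 4.88e-05). Over all libraries this call was lost without any of Ivl tumours 1, 4, 5 or 6 or skin samples 2, 3 or 4, with adjusted p of 0.0539 to 0.078 and log2 differences of -1.60 to -1.36.

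En1 (ENSMUSG00000058665, chr1:120602418-120607992) was at 2.76, 0.888, 6.27 and 10.1 CPM in skin samples 1 to 4. The 6 Ivl tumours ranged from 0.0193 through a median of 0.28 to 0.784 CPM, all below the lowest skin sample. K5 tumours 1 to 5 were at 10.2, 1.44, 1.99, 4.31 and 1.81 CPM and K14 tumours 1 to 4 at 2.25, 1.11, 1.22 and 1.13 CPM, all above the highest Ivl tumour. En1 fell by 3.76 ± 0.81 on the log2 scale in Ivl tumours against skin (edgeR, n = 6 and 4, adjusted p = 0.00127) and by 5.29 ± 0.90 within the 15 libraries (adjusted p = 1.91e-04). In K5 and K14 tumours the log2 difference from skin was -0.82 ± 0.69 and did not pass (edgeR, adjusted p = 0.303), but within the 15 libraries, without K5 tumour 1, it was -1.39 ± 0.53 and passed (adjusted p = 0.0306).

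The difference in En1 between Ivl tumours and K5 and K14 tumours was tested directly. En1 was lower in Ivl tumours by 2.94 ± 0.72 (SE) on the log2 scale (edgeR, n = 6 and 9, adjusted p = 0.0393). The exact permutation test of log2 CPM gave a two-sided p of 2e-04, the smallest that 5005 splits allow. Within the 15 libraries the difference was larger, -3.90 ± 0.82, with an adjusted p of 0.0538. Leaving out 1 library kept the sign in all 19 cases, with log2 differences of -3.31 to -2.37. The adjusted p was 0.0513 to 0.0755 in 12 of them: Ivl tumours 2 to 5, all 5 K5 tumours, K14 tumours 3 and 4 and skin sample 3. Fibroblast markers (8 genes, none at 0 throughout a group) had a lower median sum in Ivl tumours, but the groups overlapped. They summed to between 1506 and 10954 CPM, median 2241, in Ivl tumours, and to between 3869 and 15176 CPM, median 7982, in K5 and K14 tumours. Not every gene of the list was lower: Dcn spanned 35.3 to 650 CPM in Ivl tumours and 41.0 to 206 CPM in K5 and K14 tumours. Ivl tumour 1 had the highest En1 of its group with a fibroblast marker sum of 1552 CPM. The part of the fibroblast markers in the En1 difference was not tested.

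Pax9 (ENSMUSG00000001497, chr12:56691767-56712822), a factor of oral and pharyngeal epithelium, showed the largest change against skin. Skin samples 1 to 4 held 0.171, 0, 0.15 and 0.195 CPM, or 0 to 20 counts. K5 tumours 1 to 5 were at 14.9, 11.6, 11.5, 9.4 and 14.6 CPM and K14 tumours 1 to 4 at 5.59, 7.12, 11 and 10.3 CPM. Every one of the 15 tumours was above every skin sample. Pax9 rose by 6.34 ± 0.97 (SE) on the log2 scale in K5 and K14 tumours (edgeR, n = 9 and 4, adjusted p = 3.37e-05; 6.27 ± 0.71 within the 15). It rose by 5.73 ± 0.95 in Ivl tumours (edgeR, n = 6 and 4, adjusted p = 1.3e-04; 6.26 ± 0.74 within the 15). No alternative changed either call.

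Ivl tumours differed widely in Pax9. Tumours 1 to 6 held 9.9, 0.919, 0.735, 12, 15.4 and 2.87 CPM. Tumours 1 and 4 were inside the range of K5 and K14 tumours and tumour 5 just above it, and tumours 2, 3 and 6 were below all of them. The mean was 6.97 ± 6.28 CPM (SD, n = 6) against 10.7 ± 3.07 CPM (SD, n = 9). The log2 difference was -0.62 ± 0.59 (edgeR, adjusted p = 0.577) over 19 libraries and -0.01 ± 0.54 within the 15 (adjusted p = 1). The exact permutation test of log2 CPM, which weighs low libraries more, gave a two-sided p of 0.0464 unadjusted. Markers of oral and mucosal epithelium (6 genes, among them Krt4, Krt13 and Krt76) summed to 1.72 to 4.10 CPM in skin, with 1 of the 6 at 0 in all skin samples. They summed to 6.05 to 415 CPM in K5 and K14 tumours and 129 to 3313 CPM in Ivl tumours. In K5 and K14 tumours most of the sum was Tmprss11b, at 5.96 to 378 CPM. Krt13 reached 17.8 CPM and Sprr3 21.3 CPM there. Krt4 was at 0.0318 to 2.13 CPM in these tumours and at 0.396 to 2.14 CPM in skin. In Ivl tumours 1 to 6 the sums were 1617, 352, 129, 2942, 3313 and 761 CPM, which is the order of their Pax9 levels. Krt13 and Sprr3 each had that order, whereas Krt4, Krt76 and Tmprss11b did not, and Muc4 was at most 0.168 CPM. Krt76 was highest in Ivl tumour 6, at 3.51 CPM. Among K5 tumours the order differed, since K5 tumour 1 had the lowest sum of all tumours and the highest Pax9 of its group. The part of this marker list in the Pax9 result was not tested.

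Of the aristaless-like genes, Alx1 was called higher in Ivl tumours than in K5 and K14 tumours, and Alx4 was not. Alx1 (ENSMUSG00000036602, chr10:102998707-103030215, minus strand) was at 1.17, 0.236, 0.262 and 0.0878 CPM in skin samples 1 to 4. Ivl tumours 1 to 6 held 0, 0.296, 0.842, 0, 0.0234 and 2.16 CPM, or 0, 18, 55, 0, 1 and 112 counts. In K5 and K14 tumours no library held more than 3 counts, and the 9 libraries summed to 9. Thus 3 of the 6 Ivl tumours (2, 3 and 6) were within or above the range of skin, and the other 3 were at the level of K5 and K14 tumours.

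Alx1 was lower in K5 and K14 tumours than in skin (edgeR, log2 difference -4.27 ± 1.16, adjusted p = 0.00423; -4.54 ± 1.2 and 0.00402 within the 15). The ratio of summed CPM between skin and these tumours was 18.3 (exact 95% interval 9.37 to 40.8, counting error only). In Ivl tumours the difference from skin was 0.34 ± 1.14 and its sign turned without Ivl tumour 6 (-0.89) or skin sample 4 (-0.05). Alx1 was higher in Ivl than in K5 and K14 tumours (edgeR, n = 6 and 9, log2 difference 4.6 ± 1.11, adjusted p = 0.0373; exact permutation test, two-sided p = 0.0402). The difference was 5.28 ± 1.24 within the 15 libraries, where the adjusted p was 0.0851. There, Ivl tumours 4, 5 and 6 held 0, 1 and 112 counts, so that difference rests on Ivl tumour 6. The call was lost in 12 of the 19 cases of leaving out 1 library, with adjusted p of 0.0506 to 0.0901 and log2 differences of 3.38 to 4.89. Those libraries were Ivl tumours 2, 3 and 6, all 5 K5 tumours, K14 tumours 2, 3 and 4 and skin sample 3, and the smallest difference, 3.38, was that without Ivl tumour 6.

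Alx4 (ENSMUSG00000040310, chr2:93642384-93681339) was at 13.5, 3.81, 10.9 and 9.12 CPM in skin samples 1 to 4. K5 tumours 1 to 5 were at 0.635, 0.076, 0.384, 0.583 and 0.194 CPM and K14 tumours 1 to 4 at 1.97, 0.0922, 0.359 and 0.522 CPM, all below skin. Ivl tumours 1 to 6 were at 0.0615, 4.79, 9.85, 1.13, 0.164 and 2.75 CPM. Ivl tumours 2 and 3 lay within the range of skin and tumour 6 just under it, above every K5 and K14 tumour. Alx4 fell by 4.11 ± 0.88 on the log2 scale in K5 and K14 tumours (edgeR, n = 9 and 4, adjusted p = 7.58e-04; 4.14 ± 0.75 within the 15). In Ivl tumours the log2 difference from skin was -1.58 ± 0.95 (edgeR, adjusted p = 0.182) but -2.78 ± 1.03 within the 15 (adjusted p = 0.0333), and without Ivl tumour 3 it was -2.40 (adjusted p = 0.0499). Between Ivl and K5 and K14 tumours it was 2.54 ± 0.80 (edgeR, adjusted p = 0.089). That difference passed with DESeq2 (adjusted p = 0.0168) and without K14 tumour 1 (3.1), Ivl tumour 1 (2.79) or Ivl tumour 5 (2.78), and was 1.36 ± 0.81 within the 15 (adjusted p = 0.577).

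Dlx5 (ENSMUSG00000029755, chr6:6877805-6882085, minus strand), a regulator of jaw and limb bud ectoderm, was the most uniform member. Skin samples 1 to 4 were at 4.01, 3.66, 3.16 and 3.33 CPM. The 6 Ivl tumours ranged from 6.26 through a median of 14.7 to 18.4 CPM, K5 tumours 1 to 5 were at 10.6, 14.9, 13.9, 10.6 and 10.1 CPM, and K14 tumours 1 to 4 at 12.1, 15.9, 16.4 and 16.8 CPM. No tumour overlapped with skin, and the tumour groups overlapped with each other. Dlx5 rose by 1.93 ± 0.24 on the log2 scale in K5 and K14 tumours (edgeR, adjusted p = 4.06e-06; 1.97 ± 0.16 within the 15) and by 1.95 ± 0.25 in Ivl tumours (adjusted p = 2.06e-05; 2.24 ± 0.19 within the 15). Between Ivl and K5 and K14 tumours the log2 difference was 0.02 ± 0.19 (edgeR, adjusted p = 0.986), with a sign that turned under several alternatives.

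Dlx6 (ENSMUSG00000029754, chr6:6863334-6868568), the neighbour of Dlx5 on chromosome 6, did not share its level. It was at 0 to 0.438 CPM in skin (0 to 39 counts), 0.0922 to 0.305 CPM in Ivl tumours, 0.0159 to 0.076 CPM in K5 tumours and 0.0201 to 0.383 CPM in K14 tumours. Skin sample 2 and K14 tumour 3 were the highest of all libraries, and the groups compared all overlapped. No difference passed (edgeR, adjusted p = 0.728 for Ivl against skin, 0.362 for K5 and K14 against skin and 0.351 between the tumour groups). The exact permutation test between Ivl tumours and K5 and K14 tumours gave a two-sided p of 0.0184, unadjusted.

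Against normal skin, 5 of the 9 members were called in Ivl tumours, 2 higher (Pax9, Dlx5) and 3 lower (Tbx5, Tbx15, En1), where 35.9% of all 32031 genes tested were called, 20.4% higher and 15.5% lower. Within the 15 libraries 5 were called as well, with Alx4 in place of Tbx5, beside 54.9% of all genes (22.2% higher, 32.7% lower). In K5 and K14 tumours 7 members were called, 2 higher (Pax9, Dlx5) and 5 lower (Tbx4, Tbx5, Tbx15, Alx1, Alx4), beside 62.2% of all genes (23.2% higher, 38.9% lower). In the same comparison 8 members were called within the 15 libraries, with En1 added among the lower ones, beside 66.2% of all genes (23.9% higher, 42.3% lower). Skin differed from the tumours in so many genes that these counts are near the background. The median log2 difference of the members was -1.49 in Ivl tumours and -1.72 in K5 and K14 tumours, against -0.46 and -0.60 over all genes tested. Both comparisons share the 4 skin samples.

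Groups were also compared by overlap of libraries. In Ivl tumours, 2 members lay wholly above skin (Pax9, Dlx5), as did 13.2% of all genes, and En1 lay wholly below, as did 9.01%. In K5 and K14 tumours, the same 2 members lay above skin, as did 16.7% of genes, and the 5 called lower lay below, as did 24.6%.

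Between the tumours the background was much lower. In Ivl against K5 and K14 tumours, 2 of the 9 members were called, Alx1 higher and En1 lower, beside 2.36% of all genes (1.77% higher, 0.593% lower). Within the 15 libraries 0 members were called by edgeR, beside 0.41% of all genes, and both kept their direction there with larger differences. At an unadjusted p under 0.05 within the 15, Alx1 (6.7e-04) and En1 (2.41e-04) remained. For Alx1 this rests on Ivl tumour 6, with 112 counts, since Ivl tumours 4 and 5 held 0 and 1. Tbx15 also had an unadjusted p under 0.05 there (0.0198), with a log2 difference of -0.89, whereas over 19 libraries the difference was 0.15 (edgeR, adjusted p = 0.915). Over 19 libraries, DESeq2 called 3 members. The shares of all genes called by DESeq2, or with an unadjusted p under 0.05, were not counted. En1 lay wholly below K5 and K14 tumours, as did 0.343% of genes. The median log2 difference of the members was 1.30, against 0.11 over all genes. No difference between K5 and K14 tumours passed: edgeR called 0 of the 9 members and 0% of all genes, 0 members had an unadjusted p under 0.05, and DESeq2 called 0. The plot of fold changes shows these comparisons side by side.

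**Figure D2:**
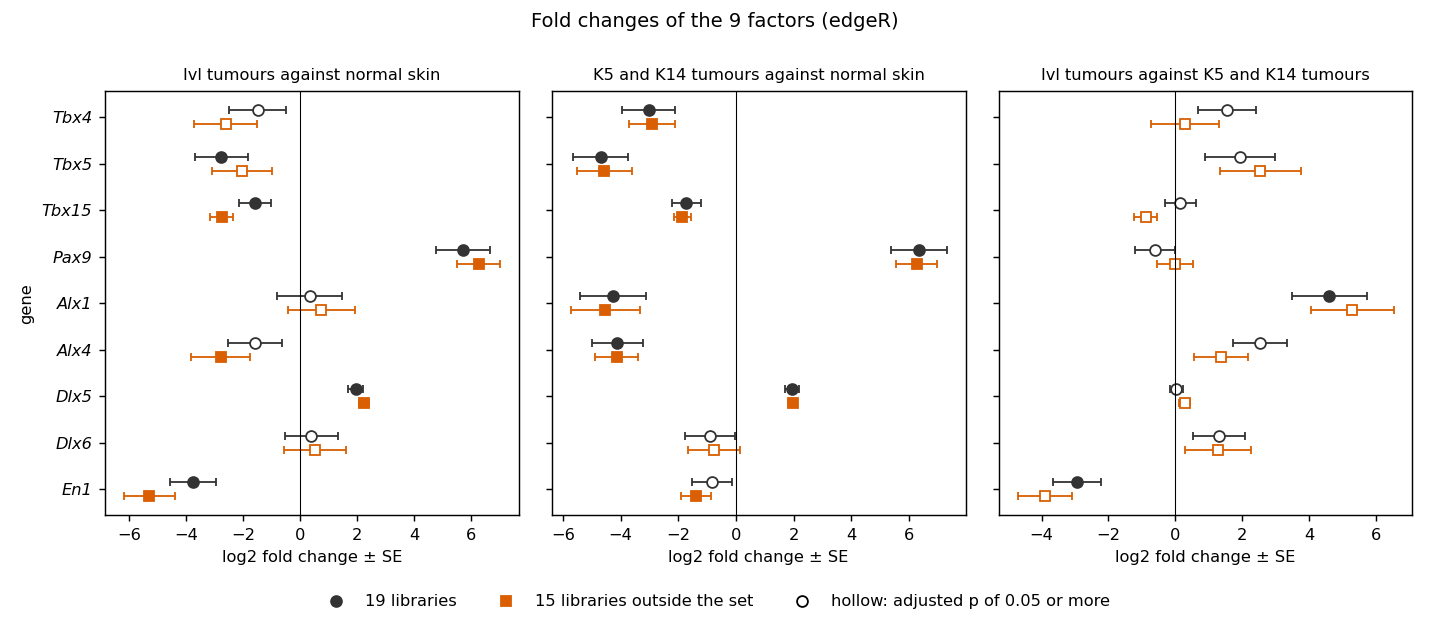
Log2 fold change (edgeR) with its standard error for the 9 genes in 3 comparisons, over 19 libraries (circles) and within the 15 libraries outside the set of 4 (squares), with hollow symbols for an adjusted p of 0.05 or more. Pax9 and Dlx5 lie right of 0 against skin in both tumour groups, and only Alx1 (4.6) and En1 (-2.94) are filled between the tumour groups, with 19 libraries.

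Within the Ivl group the members sorted the 6 tumours in a like way, although the labels treat them as 1 group. Tumours 2, 3 and 6 held the 3 highest levels of Tbx4, Tbx15, Alx1 and Alx4 and the 3 lowest of Pax9. Tumours 1, 4 and 5 showed the converse for these 5 genes. Dlx5 and Dlx6 did not follow this order. En1 did not either, since tumours 1, 2 and 3 had its 3 highest levels and tumour 6, at 1 count, the lowest. Tumours 1, 2 and 3 are the Ivl tumours of the set of 4 libraries. They also held the 3 lowest levels of Dlx5, 6.26, 14.5 and 11.1 CPM, against 14.9, 17.1 and 18.4 CPM in tumours 4, 5 and 6. K5 tumour 1, the K5 library of the set, had the highest En1 of the K5 tumours. In the order of the 5 genes, tumours 2 and 3 of the set of 4 libraries lie on one side and tumour 1 of the set on the other. The part of the set in that order, and in the En1 and Dlx5 levels, was not tested.

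**Figure D3:**
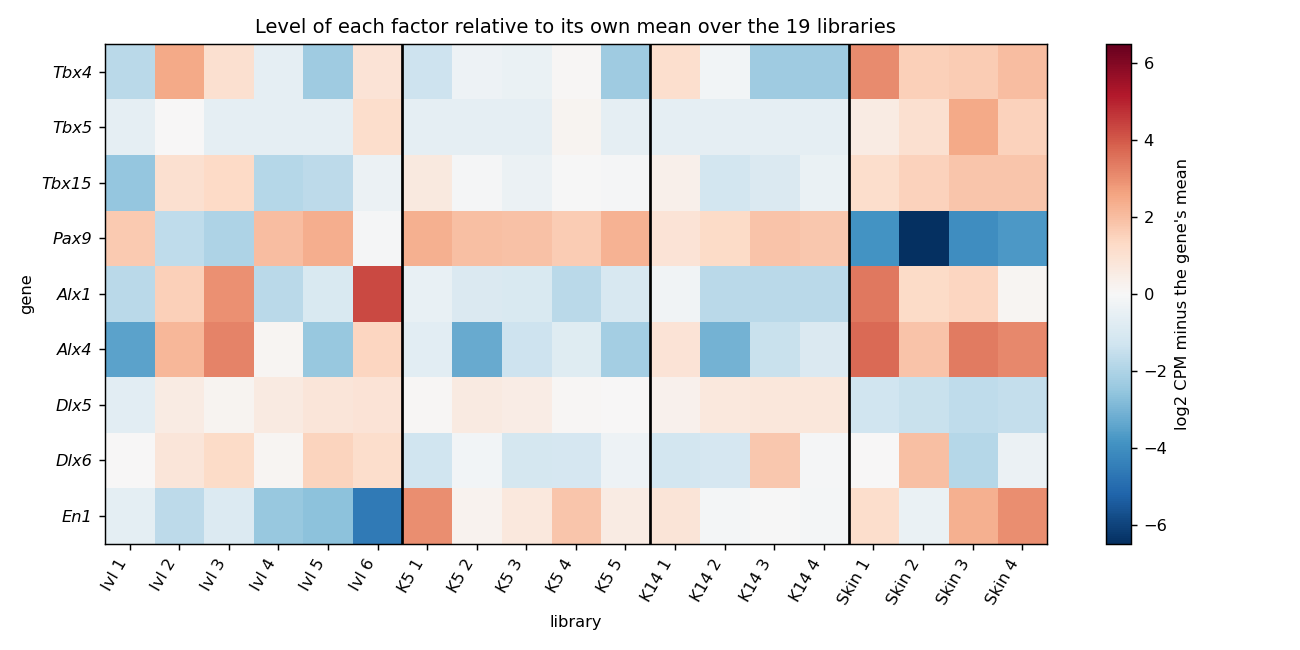
Level of each of the 9 genes in each of the 19 libraries as log2 CPM minus the mean of that gene, grouped by genotype, with red above and blue below the mean. Ivl tumours 2, 3 and 6 hold the highest levels of the Ivl group in Tbx4, Tbx15, Alx1 and Alx4 and the lowest in Pax9.

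The sums of marker lists of other tissues moved along this order, although not every gene of a list did. Skeletal muscle markers (8 genes) summed to 3983, 1260 and 364 CPM in Ivl tumours 2, 3 and 6 and to 4.49, 7.14 and 6.93 CPM in tumours 1, 4 and 5. Hair follicle markers (10 genes) summed to 1510, 648 and 598 CPM in tumours 2, 3 and 6 and to 30.0, 160 and 35.8 CPM in tumours 1, 4 and 5. Fibroblast markers (8 genes) summed to 3974, 10954 and 2730 CPM in tumours 2, 3 and 6 and to 1552, 1506 and 1753 CPM in tumours 1, 4 and 5. Of these genes, Col1a2, Col3a1, Dcn, Pdgfra and Dpt were each higher in tumours 2, 3 and 6, whereas Col1a1, Lum and Pdgfrb overlapped. Col1a1 was at 395 CPM in tumour 6 and at 488, 363 and 455 CPM in tumours 1, 4 and 5. The summed markers of oral and mucosal epithelium ran the other way, with the sums and the genes that differed given beside Pax9. Muscle and hair follicle markers were also present in skin, with 2307 to 6667 CPM for muscle, whereas hair follicle markers spanned 29.5 to 2714 CPM there. Among K14 tumours, tumour 1 had the highest sums, 445 CPM of muscle and 1055 CPM of hair follicle markers, and also the highest Tbx4, Tbx15, Alx1, Alx4 and En1. The K5 group differed. Its tumour 3 had the highest sums, 156 CPM of muscle and 32.2 CPM of hair follicle markers, but the lowest Tbx15, 8.01 CPM. Skin sample 2, with 29.5 CPM of hair follicle markers, had the lowest Alx4 of the skin samples, 3.81 CPM. That sample had the highest muscle sum of all libraries, 6667 CPM, but the lowest Tbx4 of the skin samples, 0.461 CPM. Adipocyte markers (7 genes) did not move as 1 group. Fabp4, which made up most of their sum in tumours 1, 4 and 5, was at 1598, 1684 and 3474 CPM there and at 121, 155 and 63.7 CPM in tumours 2, 3 and 6. Plin4, a coat protein of lipid droplets, was at 2.15, 5.36 and 2.69 CPM in tumours 1, 4 and 5 and at 181, 67.7 and 10.8 CPM in tumours 2, 3 and 6. The part of these lists in the levels of the members was not tested.

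**Figure D4:**
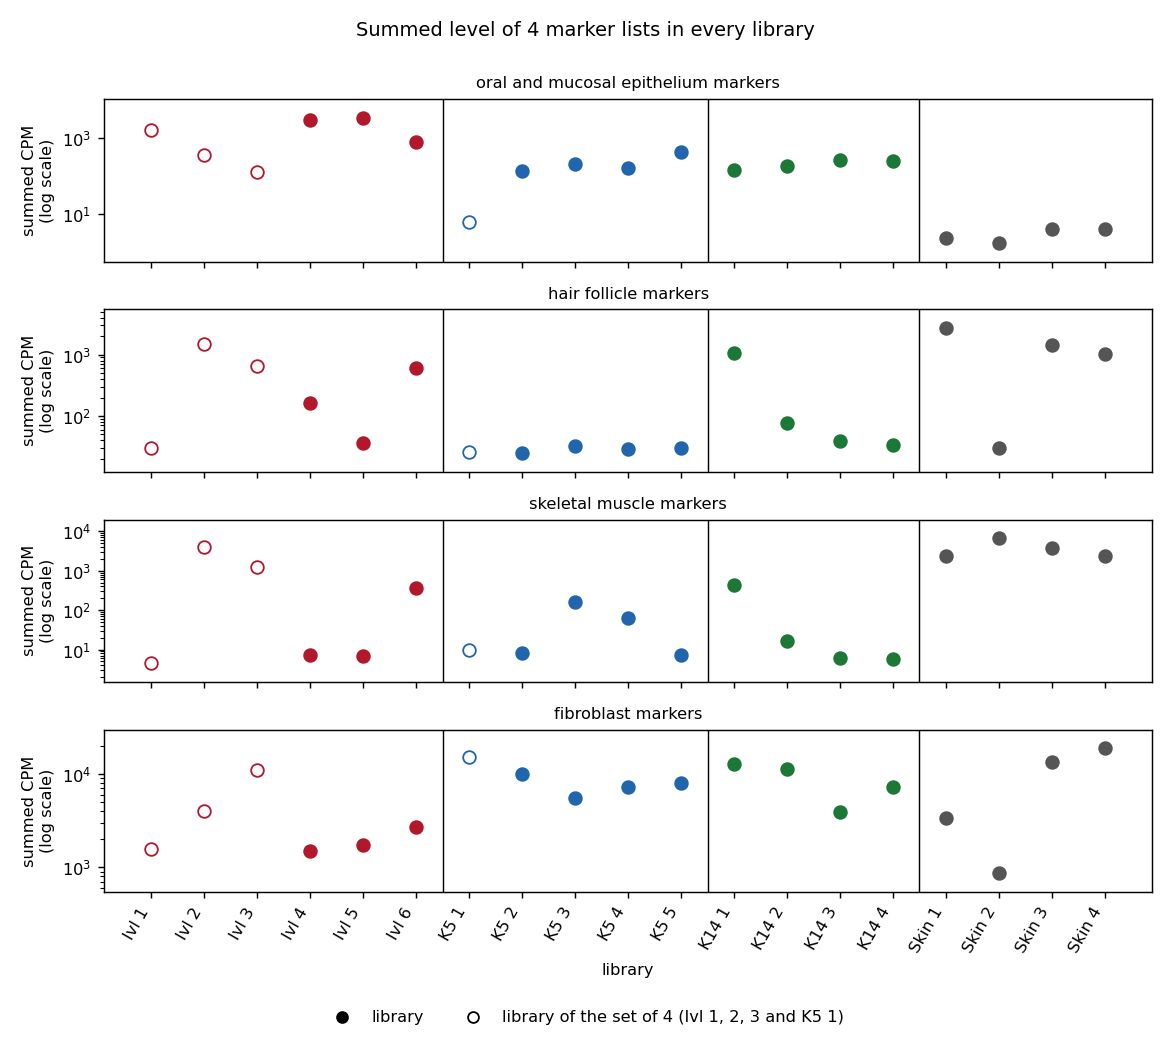
Summed CPM (log scale) of markers of oral and mucosal epithelium, hair follicle, skeletal muscle and fibroblasts in each library, with the set of 4 libraries hollow. Ivl tumours 2, 3 and 6 have the most muscle and hair follicle marker counts of the Ivl group (364 to 3983 and 598 to 1510 CPM), and skin has the least oral marker counts (1.72 to 4.10 CPM).

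Other patterning genes were counted in lists beside the members. Of 16 limb field and outgrowth factors tested, 3 were higher and 1 lower in Ivl tumours against skin, and 2 were higher and 8 lower in K5 and K14 tumours. Of 19 craniofacial factors, 5 were higher and 2 lower in Ivl tumours, and 4 were higher and 11 lower in K5 and K14 tumours. Of 15 trunk and dermal patterning factors, 2 were higher and 1 lower in Ivl tumours, and 3 were higher and 5 lower in K5 and K14 tumours. Over all genes tested, 20.4% were higher and 15.5% lower in Ivl tumours. For K5 and K14 tumours these shares were 23.2% and 38.9%. Within the 15 libraries the counts in Ivl tumours were 3 higher and 8 lower for limb, 5 and 4 for craniofacial and 2 and 4 for trunk factors. In K5 and K14 tumours they were 3 and 9, 4 and 11, and 3 and 6 there. The shares of all genes within the 15 were 22.2% higher and 32.7% lower in Ivl tumours, and 23.9% and 42.3% in K5 and K14 tumours. The median log2 differences of these lists over 19 libraries in K5 and K14 tumours were -0.96, -1.39 and 0.02, against -0.60 over all genes. Of 8 signals linked to the members, such as Fgf10, Shh and Edn1, 1 was higher in Ivl tumours (1 higher and 2 lower within the 15), and 3 were higher and 4 lower in K5 and K14 tumours.

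Between the tumour groups few of these genes were called. Otx1, a factor of the anterior head, was higher in Ivl tumours (edgeR, log2 difference 4.90 ± 1.09, adjusted p = 0.0321), as was Pax3 (2.40 ± 0.59, adjusted p = 0.0393), a factor of dermomyotome and neural crest. Ednra, the receptor for endothelin-1 that acts upstream of Dlx5 and Dlx6 in the jaw, was lower, with 18.1 ± 7.27 CPM (SD, n = 6) against 39.4 ± 9.36 CPM (SD, n = 9; edgeR, log2 difference -1.12 ± 0.22, adjusted p = 0.0216). Hoxd1 was at 0 in all 6 Ivl tumours and at 0.0159 to 0.151 CPM in the 9 others (edgeR, adjusted p = 0.0154). Otx1 ranged from 0.123 through a median of 4.46 to 64.0 CPM in Ivl tumours and overlapped with K5 and K14 tumours, which reached 1.37 CPM. Pax3 had a mean of 1.52 CPM in Ivl tumours and 0.286 CPM in K5 and K14 tumours, both below the 3.22 CPM of skin.

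Within the 15 libraries the calls of Otx1 (edgeR, log2 difference 5.45, adjusted p = 0.0587), Pax3 (1.76, adjusted p = 0.309) and Hoxd1 (adjusted p = 0.0591) were lost. Ednra was lower in Ivl tumours there too (edgeR, log2 difference -1.41 ± 0.26, adjusted p = 0.0248). The others called there were Pitx1, a hindlimb and oral factor, which was higher (1.74 ± 0.29, adjusted p = 0.0201), and Tbx2 (-1.81 ± 0.29, adjusted p = 0.0107) and Zic1 (-5.79 ± 1.17), which were lower. In K5 against K14 tumours within the 15, Hoxa9, Hoxb8, Hoxb9 and Hoxc10 were lower in K5 tumours (edgeR), where 0.0532% of all genes were called and none of the 9 members. The 15 leave out K5 tumour 1, with Hoxb8 at 30.3 and Hoxb9 at 20.5 CPM, where K14 tumours reached 10.2 and 13.9 CPM. Hoxa9 was at most 6.96 CPM in all K5 tumours and at least 14.6 CPM in K14 tumours. Over 19 libraries 0 HOX genes were called between K5 and K14 tumours.

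The HOX genes, which carry the head to tail record, varied between tumours in another order. The 12 genes of paralogue groups 6 to 10 in clusters A, B and C summed to 183 CPM in Ivl tumour 1 but to at most 30.1 CPM in Ivl tumours 2 to 6, and to 203 CPM in K5 tumour 1 but at most 7.95 CPM in the other K5 tumours, against 75.1 to 130 CPM in K14 tumours and 86.0 to 109 CPM in skin. In these HOX sums Ivl tumour 1 was thus unlike tumours 4 and 5, with which it grouped in Pax9 and Alx4.

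For each member with at least 1 CPM in at least 2 libraries (6 of the 9), the genes closest in pattern over the 19 libraries were sought among 17936 genes. The measure was the root mean square difference of centred log2 CPM, as a share of the SD of the member itself. Pax9 was nearest to 2610528A11Rik (0.229) and Gm25465 (0.282), and Tbx15 to Nyap1 (0.256) and Slc2a13 (0.263). Dlx5 was nearest to Mapk13 (0.299) and Pak6 (0.301), and Alx4 to Nrcam (0.354) and the hair follicle keratin Krt75 (0.358). En1 was nearest to Rpl39l (0.370) and Rtn4rl2 (0.472), and Alx1 to Slitrk5 (0.448) and Mab21l2 (0.478). No member was among the 2 nearest genes of another. Tbx4, Tbx5 and Dlx6 were too low for this measure.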

How the data were processed

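The authors trimmed paired-end reads with TrimGalore, aligned them to GRCm38 with HISAT2 2.1.0, counted them per gene with featureCounts (Subread 1.6.3) and adjusted the counts for a batch with ComBat-seq, so the deposited values are estimated counts. They were whole numbers, and rounding changed none. Whether strand was used in counting is not stated. The filter of the study, a count of 5 or more in any library, left 32031 of 34807 genes, which were tested with edgeR 4.0.16 (TMM scaling, robust quasi-likelihood F test, two-sided), and p-values were adjusted across them by Benjamini-Hochberg. Adjusted p under 0.05 was called. K5 and K14 tumours were merged, as in the study, after being compared with each other. CPM values are TMM scaled, and log2 CPM used a prior count of 2. Standard errors were derived from each F statistic and leave out error of the batch adjustment. Depth, 45715309 to 72609771 counts per library, limits Tbx5, Dlx6 and Alx1. Gene positions came from GENCODE M21 (GRCm38), which matched 34694 identifiers. The scripts were tested on simulated data. All members were named in every comparison, the 2 nearest genes were named per member, and list genes were named where called between tumours, except 2 that are not reported here. The members, the lists and the set of 4 libraries were chosen with earlier results of these data known. Alternatives were DESeq2 1.42.0, other scaling and filters, other groupings, the replicate number as a block, leaving out each library and exact permutation tests.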

Additional observations from a re-analysis of the deposited data

Results flagged for a closer look

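In 35 groups of 4 to 6 libraries, the highest or lowest log2 CPM of a member was set against the rest of its group. In 6 of them its gap to the nearest library, as a share of the range of the group, was past Dixon's critical value. For normally distributed values, chance exceeds it in about 1 in 20 groups. Where all but 1 library held 0, as for Tbx5 in K5 and Alx1 in K14 tumours, the gap is the whole range by construction. The rate does not apply to such groups. K14 tumour 1 stood apart in 3 genes: it was the lowest of its group in Dlx5 (log2 CPM 3.6) and the highest in En1 (1.19) and Alx1 (-3.41, from 3 counts where the other 3 held 0). It also had the highest muscle and hair follicle marker sums of the K14 group, whose part was not tested. Skin sample 2, with 0 counts, was the lowest in Pax9 (-4.89). Ivl tumour 6 (-3.18, 4 counts) and K5 tumour 4 (-4.13, 1 count) were the highest of their groups in Tbx5.

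The change against skin differed between the tumour groups in 2 members by the direct test between them. The log2 difference of Ivl from K5 and K14 tumours was 4.6 for Alx1 and -2.94 for En1. Within the 15 libraries both had adjusted p above 0.05.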

How the results depend on the processing

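The 7 calls in K5 and K14 tumours against skin held under every alternative that tested them. These were 28 for Tbx5 and 29 for each of the others. In each case of leaving out 1 library, 7 were called. For Ivl tumours against skin, 5 calls became 3 when only those libraries were fitted, and 3 to 6 with 1 library left out. For Ivl against K5 and K14 tumours, 2 calls became 0 within the 15 libraries, 1 with the set of 4 as covariate and 0 with the replicate block. They became 4 by unadjusted exact permutation, and 0 to 3 with 1 library left out. Except within the 15, shares of all genes were not counted for these alternatives. For K5 against K14 tumours, 0 members were called throughout. The labels tie equal replicate numbers of different groups to no shared animal, litter or day. Same-numbered libraries of different groups had a median correlation of their deviations of 0.0178 (25 pairs, -0.333 to 0.212), and 2 libraries correlated best with their own number, so the numbers do not pair the samples.

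Signs turned only for values that passed no test. Alx1, Ivl against skin, became -0.94 with the replicate block and -0.83 as a difference of mean log2 CPM (-0.89 to 1.47 with 1 library left out). Tbx15, Ivl against K5 and K14, became -0.89 within the 15 libraries, -0.67 with the covariate, -0.039 with the block and -0.44 as a difference of means (-0.34 to 0.37 with 1 left out). Dlx5 in that comparison became -0.12 with the block and -0.032 as a difference of means (-0.079 to 0.17). Tbx4, K5 against K14, became 0.18 with the block and 0.056 as a difference of means (-1.03 to 0.86). With 1 library left out, Alx4 in K5 against K14 ran from -1.33 to 0.23, and Dlx6 from -0.040 to 1.91 in Ivl and -1.80 to 0.63 in K5 and K14 tumours against skin. DESeq2 size factors shifted the members by -0.14 to -0.09 against skin and turned no sign. The causes were not tested.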
